A study of Mus musculus with 2 samples.

Results

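The genes of the major histocompatibility complex (MHC) and of antigen presentation were examined in total RNA from mouse adrenal gland. They were taken as the protein-coding genes whose symbol begins with H2-, together with B2m, Tap1, Tap2, Tapbp, Cd74, Ciita and Nlrc5. This gave 44 genes, 37 with an H2- symbol and 7 others, of 55450 annotated genes and of 21888 nuclear protein-coding genes. Both samples are from females of the hybrid strain B6CASTF1/J, offspring of C57BL/6J and CAST/EiJ parents, at 36 days of age, with no treatment or genetic change named in the labels. The study holds 1 group of 2 libraries, replicates 1 and 2, each with an input of 300 ng of RNA and added ERCC spike-in RNAs. The labels give the samples different animal numbers, but the library descriptions repeat the same animal number and both samples carry the same donor identifier. The spread between replicates may therefore be that between libraries of 1 animal. There was no comparison of conditions and no p-value was computed, so differences between replicates describe these 2 libraries. The cross carries an H2 haplotype from each parent, and the deposited tables give 1 value per gene for both alleles together. Both quantifications and the counts of shared sequence below rest on a single reference annotation, on mm10. How well reads of each haplotype match it was not tested, and the levels and ratios of H2 genes carry that limit.

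Class I molecules are made of a heavy chain and beta-2-microglobulin, the product of B2m, and show peptides from the cytosol to CD8 T cells. Peptides are pumped into the endoplasmic reticulum by the transporter that Tap1 and Tap2 encode, and tapasin, from Tapbp, bridges that transporter to the empty class I molecule. Class II molecules pair an alpha and a beta chain, travel with the invariant chain from Cd74, exchange its remnant for peptides with the help of H2-DM, and are typical of macrophages, dendritic cells and B cells. Nlrc5 and Ciita encode the transactivators of class I and class II promoters, acting with factors that bind a conserved upstream module.

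Promoter windows, where that module lies, are shown for genes at both ends of the range of levels. RefSeq promoter windows on GRCm38.p6, whose primary assembly is mm10, run from 250 bases before to 50 bases after the annotated start, and 34 of the 44 genes had one. Capitals mark CCAAT, the letters bound by NF-Y, or ATTGG on the other strand; GGGATTCCC, a kappaB-type site; and TGACG, the core of a CRE-type site, or CGTCA on the other strand. H2-K1 (chr17:34000298-34000597, minus strand) and H2-D1 (chr17:35262844-35263143, plus strand) are the classical class I genes. H2-Q4 (chr17:35379367-35379666, plus strand) is a non-classical relative with RNA in the gland, and H2-M10.3 (chr17:36368368-36368667, minus strand) is one without a read. B2m (chr2:122147437-122147736, plus strand) encodes the shared light chain and H2-Aa (chr17:34287774-34288073, minus strand) a class II alpha chain.
H2-K1: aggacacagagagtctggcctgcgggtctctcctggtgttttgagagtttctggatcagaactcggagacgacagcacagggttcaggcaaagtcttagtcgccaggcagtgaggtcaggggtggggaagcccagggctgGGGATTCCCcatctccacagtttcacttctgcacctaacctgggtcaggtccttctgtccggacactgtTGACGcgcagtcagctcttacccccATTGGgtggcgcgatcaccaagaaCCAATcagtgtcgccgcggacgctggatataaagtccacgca
H2-D1: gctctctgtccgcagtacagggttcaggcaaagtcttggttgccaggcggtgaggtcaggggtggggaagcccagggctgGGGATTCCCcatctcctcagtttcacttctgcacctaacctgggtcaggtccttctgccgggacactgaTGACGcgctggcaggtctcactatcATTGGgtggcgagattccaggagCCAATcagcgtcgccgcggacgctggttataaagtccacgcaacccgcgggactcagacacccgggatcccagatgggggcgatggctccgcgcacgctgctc
H2-Q4: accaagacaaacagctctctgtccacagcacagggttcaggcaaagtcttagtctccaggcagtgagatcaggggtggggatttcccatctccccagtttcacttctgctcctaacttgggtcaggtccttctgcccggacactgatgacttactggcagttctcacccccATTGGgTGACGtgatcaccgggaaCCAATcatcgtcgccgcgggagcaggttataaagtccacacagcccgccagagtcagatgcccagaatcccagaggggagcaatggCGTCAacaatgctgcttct
H2-M10.3: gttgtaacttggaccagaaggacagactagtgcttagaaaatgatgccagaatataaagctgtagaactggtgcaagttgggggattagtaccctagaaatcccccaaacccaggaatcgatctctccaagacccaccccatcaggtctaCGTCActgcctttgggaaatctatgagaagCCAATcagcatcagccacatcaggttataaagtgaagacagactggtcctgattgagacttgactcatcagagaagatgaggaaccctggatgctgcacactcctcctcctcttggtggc
B2m: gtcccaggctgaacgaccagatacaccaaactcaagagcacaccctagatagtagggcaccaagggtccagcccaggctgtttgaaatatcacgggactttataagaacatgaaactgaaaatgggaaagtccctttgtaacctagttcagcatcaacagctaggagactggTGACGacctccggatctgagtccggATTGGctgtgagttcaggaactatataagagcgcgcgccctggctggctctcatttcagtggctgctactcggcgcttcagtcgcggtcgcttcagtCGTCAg
H2-Aa: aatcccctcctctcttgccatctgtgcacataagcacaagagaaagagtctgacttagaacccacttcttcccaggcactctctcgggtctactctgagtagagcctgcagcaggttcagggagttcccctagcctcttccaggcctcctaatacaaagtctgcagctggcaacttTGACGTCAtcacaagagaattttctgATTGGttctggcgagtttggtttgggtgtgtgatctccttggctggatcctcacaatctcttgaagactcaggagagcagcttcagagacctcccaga

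CCAAT, counted on both strands, was in 30 of the 34 windows (88.2%), against 37.9% of all 27025 promoter windows of the same length. The longer form CTGATTGG, which contains the reverse letters of CCAAT and so overlaps it, was in 18 (52.9%), against 4.31% of all windows. TGACG was in 14 (41.2%) against 21.02%, and GGGATTCCC in 4 (11.8%) against 0.370%. For the interferon-stimulated response element a single pattern was searched on both strands, GAAA repeated after a short gap of any bases. It was in 3 windows (8.82%), those of B2m, H2-T23 and H2-T22, against 3.49%. Other forms of that element were not searched for. Windows without the pattern, among them those of H2-K1, H2-D1 and H2-Q4, may therefore still hold the element. The windows of family members share ancestry, so these counts are not independent. H2-K1 and H2-D1 had a longest identical run of 47 bases between their windows, and H2-K1 and H2-Q4 one of 30. The window of H2-M10.3 had a longest run of 8 with H2-K1, 11 with H2-D1 and 13 with H2-Q4. Between H2-K1 and B2m, which is no heavy chain gene, it was 8. In H2-Aa the letters TGACGTCA read the same on both strands and lie 74 bases before the start. In H2-K1 the letters CCAAT begin at base 259 of the window, after the annotated start. In H2-D1 they begin at base 198, before it, so the annotated starts place these letters differently. CCAAT was in 14 of the 16 windows of genes detected in the gland and in 16 of the 18 others. GGGATTCCC was in 3 of the 16 (H2-K1, H2-D1 and H2-Q7) and in 1 of the 18 (H2-Q6).

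The total expected count was 35684781 in replicate 1 and 38701795 in replicate 2. The 44 genes took 0.0741% of these counts in replicate 1 (exact Clopper-Pearson 95% interval 0.0732 to 0.0750) and 0.0773% in replicate 2 (0.0764 to 0.0782). These intervals cover counting error only. A gene with no read is limited to 3 counts, or 0.0841 counts per 1000000 (CPM) in replicate 1 and 0.0775 CPM in replicate 2. Levels below are TPM, a length-corrected level scaled to a fixed total per library, in the deposited gene tables, with mean ± SD over both libraries (n = 2). Markers of the steroid-making adrenal cortex were 5 of 5 detected, with sums of 16043 and 16513.6 TPM in replicates 1 and 2, and those of chromaffin cells 4 of 4, with 920 and 715 TPM. The skeletal muscle markers Acta1, Ckm, Tnnt3 and Myh1 summed to 213 TPM in replicate 1 but to 1.49 TPM in replicate 2. The liver markers Alb and Apoa1 summed to 26.5 and 1.45 TPM.

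B2m and H2-K1 led the set, and class II RNA was present at a lower level. Of the 44 genes, 21 (47.7%) reached 1 TPM in both libraries, against 53.2% of all nuclear protein-coding genes (11647 of 21888). The 21 detected genes had a median of 10.5 TPM, against 10.295 TPM for the detected protein-coding genes. Summed over genes, class I assembly stood at 272 ± 3.34 TPM, the classical class I heavy chains at 184 ± 10.1 TPM, class II loading at 50.01 ± 2.60 TPM, the class II chains at 46.7 ± 5.20 TPM, the 24 non-classical class I genes at 42.1 ± 4.87 TPM and the transactivators at 1.43 ± 0.212 TPM. The first 2 sums stood apart from the rest in each library. The next sums were class II loading (48.17 and 51.85 TPM), class II chains (43.07 and 50.42 TPM) and non-classical genes (38.66 and 45.55 TPM). They kept this order within each library, but their ranges over both libraries overlapped with their neighbours. H2-Ke6 alone added 76.4 ± 2.18 TPM.

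**Figure D1:**
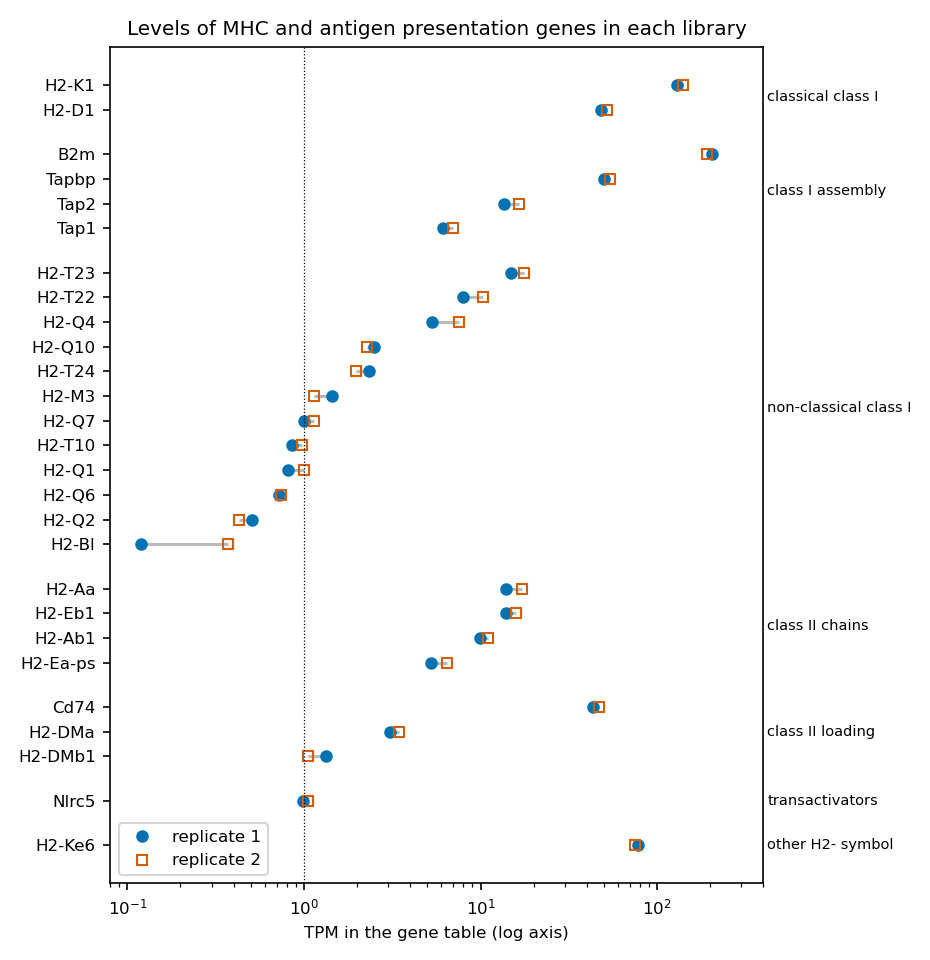
TPM in the gene table (log axis) of the 27 genes that reached 1 TPM in either library of either table, grouped by role. Filled circles are replicate 1, open squares replicate 2, and the dotted line is 1 TPM; B2m, H2-K1 and H2-Ke6 lie farthest right, and H2-Bl, on few counts, shows the widest gap between the libraries.

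B2m was the highest of the 44, with 204 and 192 TPM in replicates 1 and 2 (5611 and 5648 counts). It ranked 210 among the nuclear protein-coding genes by mean TPM. B2m (ENSMUSG00000060802.8) lies on chromosome 2 from 122147686 to 122153083 and has 1 annotated transcript. Tapbp, which encodes tapasin, had 49.9 TPM in replicate 1 and 53.9 TPM in replicate 2. Of its 31-mers 26.9% occur in other genes, most often in Gm19412. Tap2 had 13.5 and 16.5 TPM and Tap1 had 6.13 and 7 TPM in replicates 1 and 2. Tap2 RNA was 2.21 times Tap1 RNA per length in replicate 1 and 2.36 times in replicate 2. Over coding transcripts only the direction turned, with Tap2 at 0.597 and 0.495 times Tap1 in the same quantification, but 1.42 and 1.29 times in the other deposited quantification, described below.

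H2-K1, the heavy chain K, had 129 and 139 TPM in replicates 1 and 2 (4260 and 4870 counts) and ranked 345 among protein-coding genes. H2-D1, the heavy chain D, had 47.9 and 51.7 TPM (3242 and 3717.5 counts). H2-K1 (ENSMUSG00000061232.16, 33996017 to 34000347 on chromosome 17) stood above H2-D1 (ENSMUSG00000073411.11, 35262730 to 35267499) by 2.69 times in both replicates. In the read-derived quantification the ratio was 2.32 in replicate 1 and 2.29 in replicate 2. Over coding transcripts only, it was 1.39 in both replicates of the gene tables' quantification, and 1.70 and 1.65 in the read-derived one. The ratio of B2m to H2-K1 was 1.59 in replicate 1 and 1.38 in replicate 2, and 3.18 and 2.79 over coding transcripts. All class I heavy chains together came to 1.05 times B2m in replicate 1 and 1.23 times in replicate 2. Over coding transcripts they came to 0.713 and 0.835 times B2m, below it. Over coding transcripts of the read-derived quantification they came to 0.947 and 1.04 times B2m, so replicate 2 stayed above it. H2-K1 and H2-D1 made up 82.1% and 80.8% of the heavy chain TPM in replicates 1 and 2, and 75.7% and 73.8% over coding transcripts.

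Among the 24 non-classical class I genes, 7 were detected and 5 more were named because they reached 1 TPM in 1 library or in the other quantification. H2-T23, which encodes Qa-1, a ligand of receptors on natural killer cells, led with 14.9 and 17.6 TPM in replicates 1 and 2. H2-T22, whose product is bound by gamma-delta T cell receptors, had 8 and 10.27 TPM. H2-Q4 had 5.33 and 7.55 TPM. All 3 were lower in replicate 1. H2-Q10, which encodes a secreted class I molecule made mostly by liver, had 2.49 TPM in replicate 1 and 2.27 TPM in replicate 2. Alb, which encodes albumin and is abundant in liver, had 22.7 and 1.34 TPM. The source of the H2-Q10 reads was not tested.
H2-T24 had 2.35 TPM in replicate 1 and 1.96 TPM in replicate 2. H2-M3, which presents N-formylated peptides of bacteria and mitochondria, had 1.45 and 1.14 TPM. H2-Q7, a gene of the Qa-2 antigen, had 1.00 and 1.14 TPM. H2-T10, the close relative of H2-T22, had 0.86 and 0.98 TPM, and H2-Q6, also a Qa-2 gene, 0.72 and 0.74 TPM. H2-Q1 had 0.81 and 1.00 TPM, H2-Q2 had 0.51 and 0.43 TPM, and H2-Bl had 0.12 and 0.37 TPM on 4.13 and 11.2 counts.

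Of the 5 class II chain genes, 4 were detected. H2-Aa, the alpha chain of A, had 13.9 and 17.1 TPM in replicates 1 and 2, and H2-Ab1, its beta chain, had 9.97 and 11.02 TPM. H2-Aa RNA was 1.40 times H2-Ab1 RNA in replicate 1 and 1.55 times in replicate 2. H2-Eb1, the beta chain of E, had 13.9 and 15.9 TPM. H2-Ea-ps (ENSMUSG00000036322.11, 34341959 to 34344645 on chromosome 17), the alpha chain gene of E, had 5.24 and 6.43 TPM in replicates 1 and 2 (177 and 227 counts), or 0.376 and 0.404 times H2-Eb1. Over coding transcripts only this ratio turned, to 1.85 in replicate 1 and 4.46 in replicate 2, and to 1.23 and 1.41 in the read-derived quantification. As background, C57BL/6 mice carry a deletion at the promoter of this gene and make no E alpha chain, and the suffix of the symbol marks it as a pseudogene of that strain. The tables do not separate the alleles, so the parent that gave these reads was not tested. H2-Ea-ps shared no 31-mer, a run of 31 bases, with the annotated transcripts of any other gene. H2-Eb2, a further E beta gene, had no read in either table.

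Cd74 (ENSMUSG00000024610.15, 60803848 to 60812652 on chromosome 18), the invariant chain, had 43.2 and 47.0 TPM in replicates 1 and 2 (1860 and 2154 counts), which was 3.10 and 2.75 times H2-Aa. H2-DMa and H2-DMb1 encode H2-DM, which edits the peptides of class II. H2-DMa had 3.06 and 3.45 TPM and H2-DMb1 1.34 and 1.06 TPM in replicates 1 and 2. H2-DMb2, a second beta chain gene, had 0.48 and 0.22 TPM. H2-DMb1 shares 31.4% of its 31-mers with H2-DMb2, so the division of reads between them is uncertain. H2-Oa and H2-Ob encode H2-DO, an inhibitor of H2-DM typical of B cells, and held at most 2 and 6 counts in a library. The transactivators were near or below 1 TPM. Nlrc5, for class I, had 0.99 and 1.05 TPM in replicates 1 and 2 (131 and 160 counts), and Ciita, for class II, 0.29 and 0.53 TPM (44 and 73 counts).

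Markers of several cell types were read beside these values. All 10 macrophage markers were detected, with a summed level of 97.5 TPM in replicate 1 and 87.2 TPM in replicate 2, Lyz2 leading at 33.3 and 24.1 TPM. Of 7 dendritic cell markers, Zbtb46 alone was detected, and the list summed to 4.94 and 5.76 TPM, with Flt3, Xcr1, Clec9a and Ccr7 each at or below 0.08 TPM. None of 5 B cell markers (0.72 and 0.93 TPM summed) and none of 5 T and natural killer cell markers (0.20 and 0.25 TPM summed) was detected. Endothelial markers were all detected (5 of 5; 148 and 142 TPM), as were fibroblast markers (4 of 4; 172 and 152 TPM) and adipocyte markers (4 of 4; 1440 and 1473 TPM). The part of each cell type in the class II values was not tested. In bulk RNA, fewer cells of a type and less RNA per cell cannot be told apart.

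The levels differed along the MHC. Of the 44 genes, 40 lie on chromosome 17 of mm10 between 33915899 and 37483552. From the centromeric end, Tapbp, H2-K1, H2-Ke6 and the class II region up to H2-Ea-ps were followed by H2-D1, the Q genes, the T genes and last the M genes. H2-M3 was the only detected M gene. H2-M1, H2-M11, the H2-M10 genes, H2-T3 and H2-Eb2, 10 genes in all, were listed at 0 counts in both libraries of the gene table. Of these, 9 were at 0 in the read-derived table as well, and H2-T3, the TL antigen of gut epithelium, had 3.00 counts in replicate 1. The known site of expression of the H2-M10 genes is the vomeronasal organ. At this depth a level below the 3-count limit is not detectable. The other 7 unnamed genes with reads, Ciita, H2-DMb2, H2-Ob, H2-Oa, H2-M9, H2-M2 and H2-M5, held 1 to 73 counts in a library and at most 0.53 TPM.

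**Figure D2:**
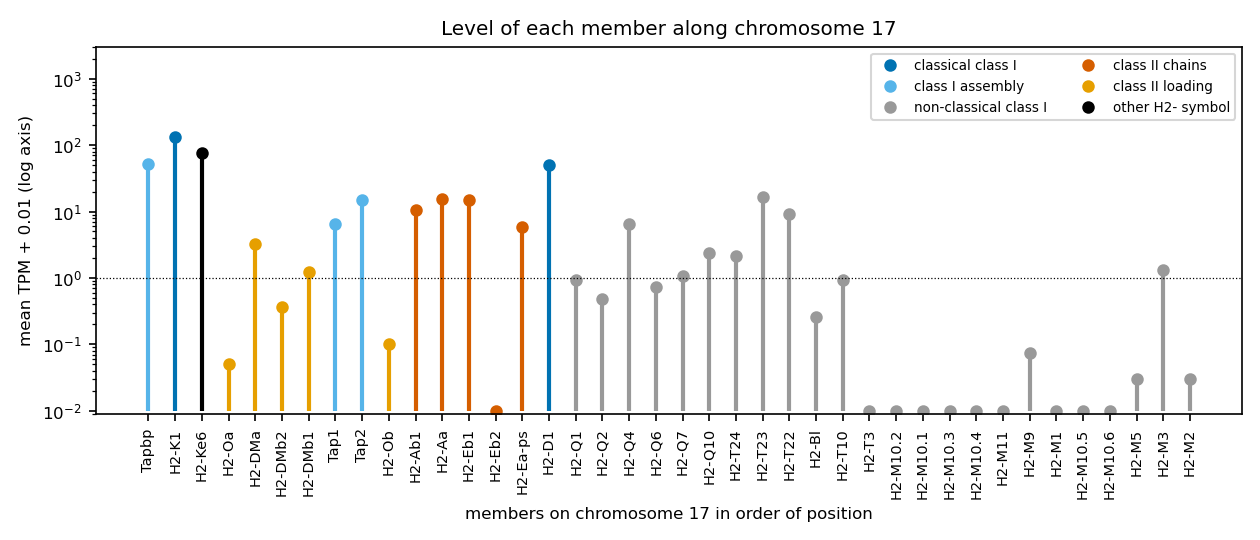
Mean TPM of both libraries plus 0.01 (log axis) for the 40 genes on chromosome 17 in order of position, coloured by role. Genes at the base had no counted read; the dotted line marks 1 TPM, and the highest genes lie at the left end, with H2-D1 and H2-T23 as later peaks.

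H2-Ke6 has the H2- symbol by position only. It encodes a 17-beta-hydroxysteroid dehydrogenase (also named Hsd17b8), and presents no antigen. Its level was 77.96 and 74.88 TPM in replicates 1 and 2, above every class II gene. Of its 31-mers, 76.1% also occur in Gm20427, which overlaps it, so its reads may be split between both entries and its level is uncertain.

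The well-covered genes lay within 2-fold between the libraries, as did nearly all protein-coding genes. Of 19 with 200 or more summed counts, 0 differed by 2-fold or more in TPM + 0.1, against 0.76% of the 11585 nuclear protein-coding genes that passed the same filter. With only 19 genes, a count of 0 does not set them apart from that share. No test was made, since both libraries belong to 1 group. The log2 ratio of replicate 1 over replicate 2 ran from -0.49 for H2-Q4 to 0.25 for H2-T24. Its median was -0.14, against -0.036 over the protein-coding genes. Of the 19 genes, 15 (78.9%) were lower in replicate 1, against 58.5% of the protein-coding genes. Those higher in replicate 1 were B2m, H2-Ke6, H2-Q10 and H2-T24. With counts scaled by TMM the median of the genes was -0.071 and that of all protein-coding genes -0.00096, and the same number of genes, 15, was lower in replicate 1 against 50.1% of protein-coding genes.

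The class II chains had 45.3 CPM in replicate 1 (exact Clopper-Pearson 95% interval 43.1 to 47.6) and 50.4 in replicate 2 (48.2 to 52.7). The non-classical class I genes had 62.5 (59.9 to 65.1) and 72.5 (69.9 to 75.3) CPM. The classical class I genes had 210 (205.5 to 215) CPM in replicate 1 and 222 (217 to 227) CPM in replicate 2. Class I assembly had 304 (299 to 310.2) and 308 (303 to 314) CPM. These values are scaled by library totals, the intervals hold counting error only, and no difference between the libraries was tested. The deposited TPM intervals did not overlap for 5 of the 19 genes, against 14.8% of the protein-coding genes: B2m, H2-Aa, H2-T23, H2-T22 and H2-Q4. For H2-Q4 the deposited interval was 4.68 to 5.82 TPM in replicate 1 and 6.78 to 8.08 TPM in replicate 2. These intervals hold no variation between animals, and their level is not given in the sources used here.

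**Figure D3:**
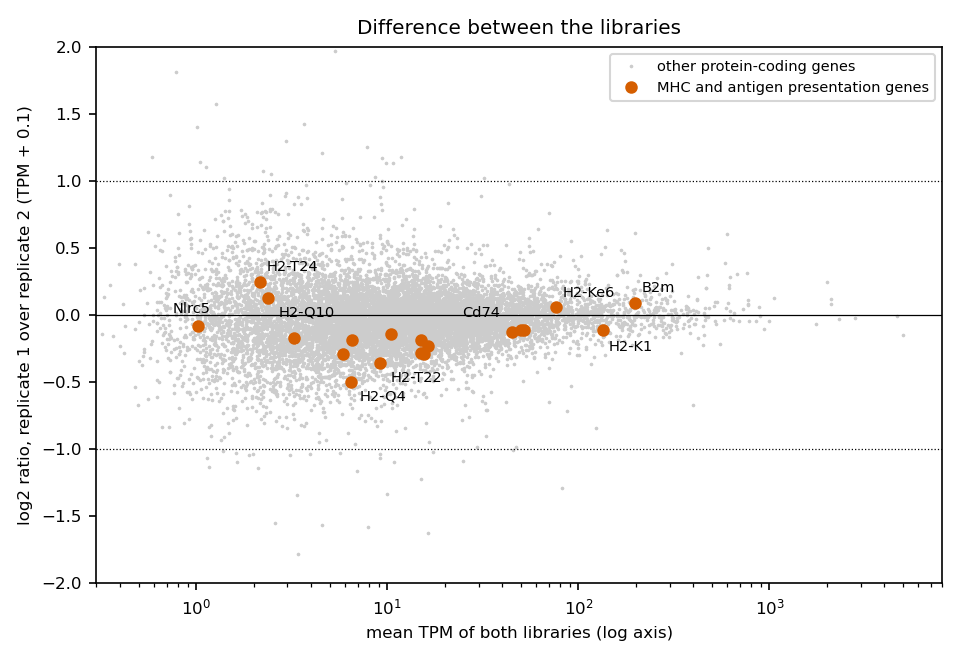
Log2 ratio of replicate 1 over replicate 2 (TPM + 0.1) against the mean TPM of both libraries (log axis) for genes with 200 or more summed counts. Orange points are the 19 MHC and antigen presentation genes, grey points other protein-coding genes, and the dotted lines mark 2-fold; all orange points lie between -0.49 and 0.25, and 40 grey genes fall beyond the plotted range of 2 either way.

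Each library was quantified a second way by the authors, straight from the reads, and both tables were compared in the same libraries. Over nuclear protein-coding genes the median log2 ratio of TPM + 1 in the gene table over that in the read-derived table was -0.71 in both replicates. Protein-coding genes took 31.2% of the TPM in the gene table and 59.2% in the read-derived table. The 23 genes at 1 TPM or more in either table in both libraries had a median of -0.76 in replicate 1 and -0.72 in replicate 2. In the read-derived table B2m stood at 306 TPM in replicate 1 and 294 in replicate 2, H2-K1 at 194 and 203, H2-Ke6 at 172 and 163 and H2-D1 at 84.0 and 88.6 TPM. Cd74 followed at 74.4 and 82.4 TPM and Tapbp at 64.2 and 67.8 TPM, so Tapbp, above H2-D1 and Cd74 in the gene table of each library, was below both. H2-T23 had 28.7 and 33.3 TPM, H2-Aa 27.1 and 33.3 TPM, H2-Eb1 23.8 and 26.8 TPM, Tap2 23.6 and 27.9 TPM and H2-Ab1 20.5 and 24.7 TPM, overlapping in their order. H2-DMb1 had 5.87 and 2.97 TPM there on counts of 66.4 and 53.3, close to the 62.9 and 53.7 counts of the gene table. H2-Ke6 alone was at least 2-fold lower in the gene table in both libraries, with a log2 ratio of -1.13 in replicate 1 and -1.11 in replicate 2. This is 1 of 23, against 13.1% of protein-coding genes. None was 2-fold higher, against 0.294%. With each table rescaled to its protein-coding genes, the median was 0.12 in replicate 1 and 0.13 in replicate 2 for the set. It was 0.11 in both for all protein-coding genes. With the limit of 1 TPM set on the rescaled values, 27 genes were compared, and H2-Q1 alone passed 2-fold, higher in the gene table. Of protein-coding genes, 0.663% were higher and 0.901% lower at that setting.

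Read counts, which carry no length or total, were compared between the tables as well. Over 11568 protein-coding genes with 100 or more read-derived counts in both libraries, the count in the gene table was a median 0.911 of that in the read-derived table in replicate 1 and 0.924 in replicate 2. Of 19 genes of the set with that depth, 3 fell below the 5th percentile in both libraries, against 3.68% of protein-coding genes, and 1 lay above the 95th percentile in both, against 4.23%. The 3 low genes were H2-Q7, with 57.6 counts in the gene table against 117 in the read-derived table in replicate 1 and 73.9 against 157 in replicate 2, H2-Q10 (143 against 211, and 141 against 202) and H2-Q4 (355 against 459, and 529 against 664). H2-Q1 went the other way with 53.9 against 14.2 counts in replicate 1 and 71.7 against 18.4 in replicate 2, below the depth for that count.

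The high gene was B2m, with 5611 counts in the gene table against 4152 in the read-derived table in replicate 1, and 5648 against 4245 in replicate 2. B2m shares none of its 830 31-mers with another annotated gene. By contrast H2-Q4 shared 53.0% of its 31-mers, most often with H2-Q6, and H2-Q7 39.2%, most often with H2-Q10. H2-Q10 shared 30.3% and H2-Q1 24.1%. Shared sequence did not go with a shifted count in each case: H2-T22 shared 67.4% of its 31-mers with other genes (47.2% with H2-T10) and H2-T10 shared 64.2%, yet both had near-equal counts in the tables. For H2-T22 these were 488 against 483 in replicate 1 and 669 against 669 in replicate 2. H2-K1 shared 22.8% (11.1% with H2-D1) and H2-D1 26.9% (13.8% with H2-K1), and their count ratios lay between the 5th and 95th percentiles. How reads of shared sequence should be divided was not tested, so the values of genes that share much of it, among them H2-T22, H2-T10, H2-Q4, H2-Q6 and H2-Q7, are uncertain.

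**Figure D4:**
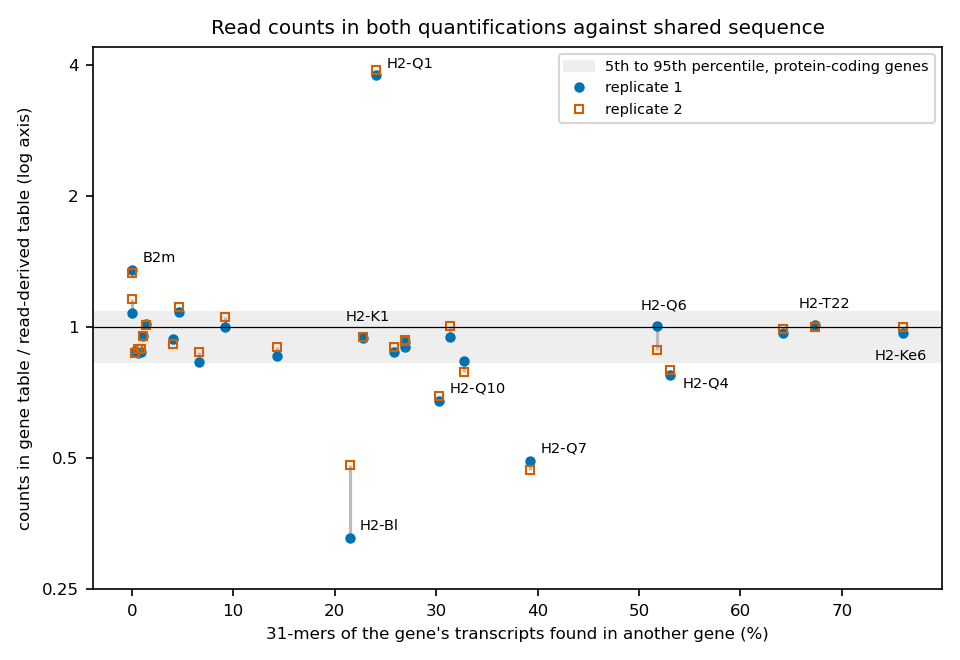
Ratio of the count in the gene table to that in the read-derived table (log axis) against the share of a gene's 31-mers found in any other annotated gene. Circles are replicate 1, squares replicate 2, and the grey band spans the 5th to 95th percentile of protein-coding genes; H2-Q1 lies far above it, H2-Q7, H2-Bl, H2-Q10 and H2-Q4 below it, and B2m above it at 0% shared.

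Much of the TPM of several of these genes was assigned to transcripts not annotated as coding. In the alignment-derived transcript tables, H2-K1-215, a retained-intron transcript of 457 bases, took 48.0% of H2-K1 TPM in replicate 1 and 47.2% in replicate 2, on 798 and 912 counts. The coding transcripts H2-K1-205 (31.3% and 31.2%) and H2-K1-201 (16.3% and 15.0%) took most of the rest, on 2142 and 2474 counts and on 1155 and 1231 counts. In the read-derived table retained-intron transcripts of H2-K1 took 27.2% and 29.2% of its TPM. Tap2-202, a retained-intron transcript of 2561 bases, took 79.7% and 80.2% of Tap2 TPM in the alignment-derived table and 55.7% and 58.6% in the read-derived table. H2-Eb1-205, annotated as a target of nonsense-mediated decay, took 62.3% and 64.1% of H2-Eb1 TPM, and 61.7% and 57.9% in the read-derived table. The coding transcripts of H2-Eb1 took 20.4% in replicate 1 and 8.42% in replicate 2.

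These assignments rest on a model of overlapping transcripts of unequal length, and short entries gain TPM for the same reads. Total RNA can also hold unspliced RNA, whose share was not tested. Other genes were mostly coding in the alignment-derived table: H2-D1 (96.2% and 95.6% of TPM, led by H2-D1-202 with 91.8% and 90.6%), H2-Aa (99.1% and 98.9%, led by H2-Aa-201), H2-Ab1 (98.5% and 94.7%, led by H2-Ab1-201) and H2-T23 (94.2% and 96.3%, led by H2-T23-201). In the read-derived table the coding share was 98.9% and 97.5% for H2-D1, 96.2% and 96.0% for H2-Aa, 96.4% and 82.6% for H2-Ab1, and 94.3% and 97.2% for H2-T23. Cd74 was divided between Cd74-201, with 62.5% and 67.9%, and Cd74-202, with 37.5% and 32.1%. As background, alternative splicing gives a short and a long form of the invariant chain. H2-Ea-ps RNA was assigned to H2-Ea-ps-202, annotated as coding, for 100% in replicate 1 and 93.1% in replicate 2. In the read-derived table this share was 100% and 80.2%, and H2-Ea-ps-201, annotated as a polymorphic pseudogene, took 19.8% in replicate 2.
The tables named different leading transcripts for some genes. H2-T22-202 led H2-T22 in the alignment-derived table with 62.0% and 61.1%, but H2-T22-203 led in the read-derived table with 94.7% and 86.2%. For Tapbp, Tapbp-206 led with 57.5% and 58.0%, against 30.5% and 28.1% in the read-derived table, where Tapbp-201 led. For H2-DMb1, H2-DMb1-201 took 100% in both libraries, against 24.3% and 52.6% in the read-derived table. There the leading transcript differed in replicate 1 only, where H2-DMb1-202, a retained-intron transcript, took 56.5%.

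**Figure D5:**
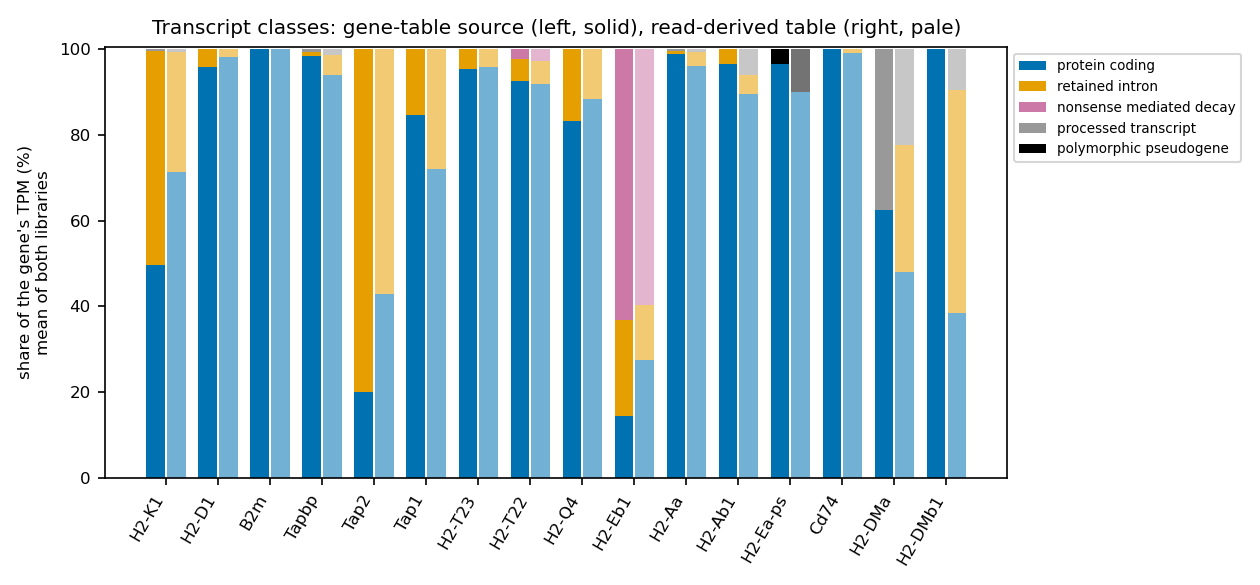
Share of a gene's TPM (%), mean of both libraries, in each transcript class for 16 genes. The left solid bar of each pair is the alignment-derived table behind the gene table and the right pale bar the read-derived table; retained introns take about 50% of H2-K1 and 80% of Tap2 in the solid bars, and nonsense-mediated decay over 60% of H2-Eb1.

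Most of the listed genes that feed these molecules were detected in the gland, against 53.2% of all nuclear protein-coding genes. All 14 genes of peptide supply and loading were detected, with a median of 70.5 TPM, led by the endoplasmic reticulum chaperones Hspa5 (182 TPM in replicate 1 and 198 TPM in replicate 2), Calr (179 and 173 TPM) and Canx (158 and 149 TPM). The immunoproteasome subunits stood lower, with Psmb8 at 7.48 and 9.41 TPM, Psmb9 at 4.31 and 5.72 TPM and Psmb10 at 27.0 and 26.5 TPM. Of 10 genes of endosomal processing found, 9 were detected, with a median of 36.4 TPM over the 10, led by the cathepsins Ctsb (390 and 382 TPM), Ctsd (351 and 341 TPM) and Ctsl (223 and 243 TPM). Ctss, the cathepsin that trims the invariant chain in antigen-presenting cells, had 10.7 TPM in both replicates. Of 12 class I-like molecules without an H2- symbol, 7 were detected, led by Cd1d1, which presents lipids, at 105 and 102 TPM, Fcgrt, the neonatal Fc receptor, at 35.9 and 41.8 TPM, and Hfe, which regulates iron uptake, at 14.6 and 15.1 TPM.

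All 14 promoter-binding regulators were detected, with a median of 12.8 TPM. Rela, a subunit of NF-kappaB, had 26.1 and 26.0 TPM in replicates 1 and 2, and Atf1, of the CREB family, 19.8 and 22.9 TPM. The subunits of RFX, which binds the X box of the module, had 6.78 and 7.48 TPM (Rfx5), 10.7 and 13.4 TPM (Rfxap) and 4.77 and 5.20 TPM (Rfxank). All 9 interferon receptors and kinases were detected, with a median of 12.1 TPM, led by Jak1 (39.5 and 41.6 TPM), Ifnar2 (31.9 and 36.4 TPM) and Ifnar1 (21.4 and 25.4 TPM). Of the 53 genes of these 5 lists with 200 or more summed counts, 0 were 2-fold apart between the libraries, against the same 0.76% of protein-coding genes. Between the tables, Psme1, Psme3, Canx and Sec61b of peptide supply, Ctsl and Cd9 of endosomal processing, and Rfxap, Nfyb and Atf1 of the regulators were at least 2-fold lower in the gene table in both libraries, and none was higher. These 9 are 17.0% of the 53 genes compared, against the 13.1% of protein-coding genes that were lower and the 0.294% that were higher.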

How the data were processed

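Each library came with a gene table and 2 transcript tables, and the text beside the deposited files gives mm10 and GENCODE M21 for all of them. The deposited gene tables, and the transcript tables made from the same alignment, give per entry an expected count (a read number that need not be whole) and TPM, which the authors scaled to a fixed total over every entry, spike-ins included. The deposited bounds of the TPM interval and the SD of the count were treated as signal values, and the level of that interval is unstated. The deposited isoform percent was not printed, and transcript shares were computed from TPM. For the table derived from the reads, the deposited estimated count and TPM of each transcript were summed here per gene. Not given in the sources used here are the aligner, its version, filters and the use of strand in counting, so overlapping and antisense genes are uncertain. The labels name a directional kit.

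Detection was set at 1 TPM in both libraries. Library ratios used TPM + 0.1 and 200 or more summed counts, and table ratios TPM + 1. TMM and DESeq2 scaling used expected counts rounded to whole numbers, with edgeR 4.0.16 and DESeq2 1.42.0 in R 4.3.3. Other steps used Python 3.11.15, numpy 2.4.6, pandas 2.3.3, scipy 1.17.1 and matplotlib 3.10.9. The rule for library ratios was also run on simulated counts with counting error only. That run held no other variation between libraries and no shared sequence, so it cannot show how the rule handles them. Shared sequence was the share of a gene's 31-mers found in another gene among the 141767 annotated transcripts scanned. Of the endosomal list, March1 was found under that symbol and its newer name was not. All genes of the set at 1 TPM in either library of either table were named with values, and of each pathway list the 3 highest and every gene 2-fold apart, except 1 gene of the regulators that is not reported here. Marker lists were given as sums and counts. Psmb and RFX genes, Ctss and the single markers printed were chosen after their values were seen. The genes, lists and measures were chosen with earlier results of these data known. Alternatives were the thresholds, pseudocounts, scalings, tables and libraries given in the closing section. Intervals are exact 95% and cover counting error only.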

Additional observations from a re-analysis of the deposited data

Results flagged for a closer look

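Another 8 genes with an H2- symbol have no protein-coding transcript in the annotation and entered no comparison. H2-T-ps had a mean of 267.91 expected counts (213 in replicate 1 and 322 in replicate 2) and 6.11 and 8.61 TPM, above H2-Q10 and near H2-Q4. Of the 31-mers of H2-T23, 12.4% also occur in H2-T-ps. H2-K2 had a mean of 58.57 counts (60.2 and 56.9), and H2-Q5 had a mean of 20.44 counts (15.4 and 25.5). All 3 are above the 3 counts that a count of 0 allows. The other 5 were at 0 counts in both libraries of the gene table. No library was a control, and the source of these reads was not tested.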

How the results depend on the processing

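The count of detected genes, 21, ran from 15 at 5 TPM to 26 with TPM rescaled to nuclear protein-coding genes. Summed levels differed between tables: in the read-derived tables they were 403 TPM for class I assembly, 285 for classical class I, 168 for H2-Ke6, 88.8 for class II loading, 88.3 for class II chains, 78.5 for non-classical class I and 1.90 for the transactivators. With TPM rescaled to nuclear protein-coding genes they were 871, 590, 245, 160, 150, 135 and 4.58 in the same order of groups. The count of genes 2-fold apart between libraries, 0, became 1 of 44 with no filter, against 2.65% of protein-coding genes. This was H2-Bl, on 4.13 and 11.2 counts in replicates 1 and 2. The median log2 ratio between libraries, -0.14, was -0.093 with no filter, -0.071 with TMM, -0.075 with DESeq2 size factors, -0.096 with library totals and -0.10 in the read-derived tables. Tap1 alone changed sign, in the read-derived tables. The count 2-fold apart between tables, 1, became 6 with a pseudocount of 0.1 TPM (H2-Q4, H2-Q7, H2-Q10, H2-Ab1, H2-Ke6 and H2-DMb1, against 18.3% of protein-coding genes) and 5 with protein-coding transcripts only (Tap2, H2-Q4, H2-Eb1, H2-K1 and H2-Ke6, against 9.26%). With 1 library it was 2 to 3: 2 without replicate 1 (H2-Ab1 and H2-Ke6, against 16.4%) and 3 without replicate 2 (H2-Q7, H2-Ke6 and H2-DMb1, against 16.0%). Over coding transcripts only, an alternative chosen after seeing the data, 3 ratios turned in the gene tables' quantification. Tap2 over Tap1 turned to 0.597 and 0.495 in replicates 1 and 2, but not in the read-derived tables (1.42 and 1.29). H2-Ea-ps over H2-Eb1 turned to 1.85 and 4.46 (1.23 and 1.41 in the read-derived tables). Heavy chains over B2m turned to 0.713 and 0.835, and in the read-derived tables in replicate 1 only (0.947 and 1.04). The cause was not tested. Depth limits the genes under 100 counts, among them H2-Q1, H2-Q2, H2-Q6, H2-Q7, H2-T10 and all M genes. No paired analysis was possible because the study has 1 group.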
